A study of Mus musculus with 6 samples.

Results

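The proteasome is the protease complex that degrades ubiquitin-tagged proteins, and its subunits, assembly factors and regulators carry gene names that begin with Psma to Psmg and a number. The array held 49 gene names of that form among 34650, on 63 probes and 72 spots. Of these, 48 are proteasome genes. The other one, Psmc3ip, encodes a recombination factor that is no subunit, and it stays out of the counts (KO minus WT -0.20 ± 0.15 SE, limma adjusted p = 0.588). The proteasome genes were divided by role into the core, the immunoproteasome, the cap, the assembly factors, and the other caps with an inhibitor, plus a pair of tissue-specific core genes.

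Transcripts were measured in bone marrow cells of C57BL/6 mice that carried c-Kit and Sca-1 and lacked CD48 and lineage markers, which selects for blood stem cells and early progenitors. Of the 6 samples, 3 came from mice with intact Spred1 (WT) and 3 from mice without Spred1 (KO), an inhibitor of Ras-ERK signalling. Each sample had its own 1-colour Cy3 array. The labels give neither the deleted part of Spred1 nor the age of the mice, and they do not say whether the samples of a genotype came from separate animals. The p-values thus rest on the variation among these 6 samples alone, part of which may be technical.

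The core is a barrel of stacked rings whose outer alpha subunits form the gate and whose inner beta subunits carry the cutting sites. The cap binds ubiquitin chains, removes them and unfolds the substrate with a ring of ATPases before it enters the barrel. Blood cells, and other cells under interferon, can swap the constitutive catalytic subunits for those of the immunoproteasome, which favours peptides that fit major histocompatibility complex class I. Blood stem cells make protein slowly, and the balance of protein synthesis and degradation is a studied property of them. Chaperones named Psmg and some named Psmd assist in building the barrel and the cap.

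The catalytic subunits Psmb5 and Psmb8 replace each other in the barrel, so a probe of each is shown first. Both are 60 bases long. The Psmb5 probe shown is the dimmer of 2 for that gene, with a KO minus WT difference of -0.17 ± 0.14 SE, and the Psmb5 values further down come from the brighter one, at chr14:55232957-55233016. The Psmb8 probe shown is the one measured. Over the 50 bases in which they align, 31 are identical, and those are in capitals. The letters differ at the remaining positions of that stretch, and whether either probe also binds the other transcript was not tested. The Psmb5 probe shown lies at chr14:55233161-55233220 on the minus strand and the Psmb8 probe at chr17:34337771-34337830 on the plus strand (mm9, as given in the scanner files).
Psmb5: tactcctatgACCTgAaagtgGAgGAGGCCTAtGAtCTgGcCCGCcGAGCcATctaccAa
Psmb8: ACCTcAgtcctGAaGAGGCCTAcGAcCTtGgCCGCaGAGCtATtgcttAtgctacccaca

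The probes of Psmd6 and Psmb7 are shown because these genes had the smallest p-value and the largest difference, respectively, among members whose genotypes did not overlap. The Psmd6 probe lies at chr14:14946703-14946762 on the minus strand. The Psmb7 probe is split across exons between chr2:38468966 and chr2:38489385 on the minus strand. The third probe is one of those the array lists under Psme2b, at chr11:48759495-48759554 on the minus strand, and it is also annotated to Psme2.
Psmd6: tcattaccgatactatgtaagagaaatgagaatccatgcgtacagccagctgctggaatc
Psmb7: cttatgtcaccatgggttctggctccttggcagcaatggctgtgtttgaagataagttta
Psme2b and Psme2: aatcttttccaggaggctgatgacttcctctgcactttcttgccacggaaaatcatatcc

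No proteasome gene passed the test for a difference between the genotypes. Of the 48, 46 were tested, having a signal well above background on each of the 3 arrays of WT, of KO or of both, and 0 passed limma's adjusted p of 0.05, where 0.0204% of the 19602 features tested did. The KO mean ran from 82.8% of WT (Psmf1) to 106% (Psme4), and limma's adjusted p-values ran from 0.406 to 0.971. The values nevertheless leaned one way. The KO mean was below the WT mean for 41 of the 46 genes, against 51.1% of all features, and the median difference was -0.091 on the log2 scale, or 93.9% of WT, against -0.0056 for all features. Features of like brightness, those between the quartiles of the members' mean level, also leaned lower, with 2767 of 4163 (66.5%) below WT and a median of -0.050.

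At an unadjusted limma p under 0.05, 1 gene, Psmd6, was lower in KO, and 5% of all features were called in that direction. None was higher, where 7.19% of all features were. All 3 KO arrays lay below all 3 WT arrays for 11 of 46 genes, against 9.66% of features. They lay above for 0 of 46, against 9.76%. Among the 4163 features of like brightness, 574 lay below and 233 above. The 11 were Psma1, Psma3, Psmb1 and Psmb7 of the core, Psmc1, Psmc5, Psmd6, Psmd7, Psmd11 and Psmd12 of the cap, and the assembly factor Psmg2. Each has an exact two-sided permutation p of 0.1, the smallest that 3 against 3 arrays can give. In bulk samples like these, fewer cells of a type and less RNA per cell cannot be told apart.

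**Figure D1:**
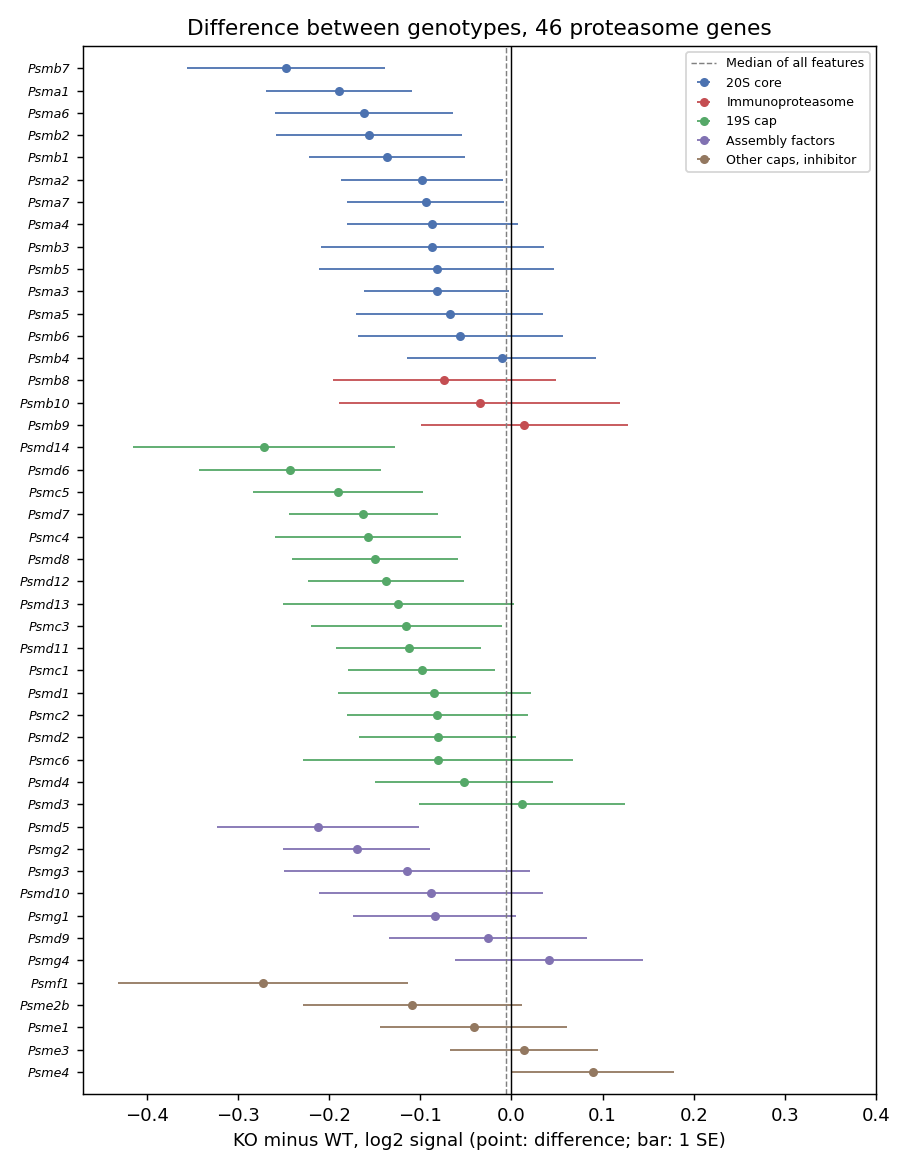
Difference between genotypes (KO minus WT, log2 signal) for the 46 tested proteasome genes, coloured by role, with bars of 1 SE from limma on 3 arrays per genotype; the dashed line marks the median of all features. Points lie left of 0 for 41 genes, and Psme4, Psmg4, Psme3, Psmb9 and Psmd3 lie right of it, though left with median scaling or no scaling between arrays.

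The lean moved with single arrays. WT array 3 was the highest of the 6 arrays for 35 of the 46 genes, where it was the highest for 22.1% of all features. KO array 3 was the lowest for 18 genes and KO array 2 for 14. Relative to the WT mean, the median over the 46 genes was -0.016, -0.091 and 0.11 on WT arrays 1 to 3 and -0.058, -0.13 and -0.13 on KO arrays 1 to 3. WT array 2 thus lay below KO array 1, and the genotypes overlapped. WT array 3 and KO array 3 shared slide 2, and the other 4 arrays were on slide 1, with the same scan day for all. Within slide 1 the median difference was -0.029, with 30 of 46 genes lower in KO. Between the pair on slide 2, 1 array a genotype, it was -0.24, with 44 of 46 lower, while the median of all features there was -0.027. Without WT array 3 the median was -0.041, with 29 of 46 lower, against 48.2% of all features. Whether the array or the slide brings about the lean was not tested.

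**Figure D2:**
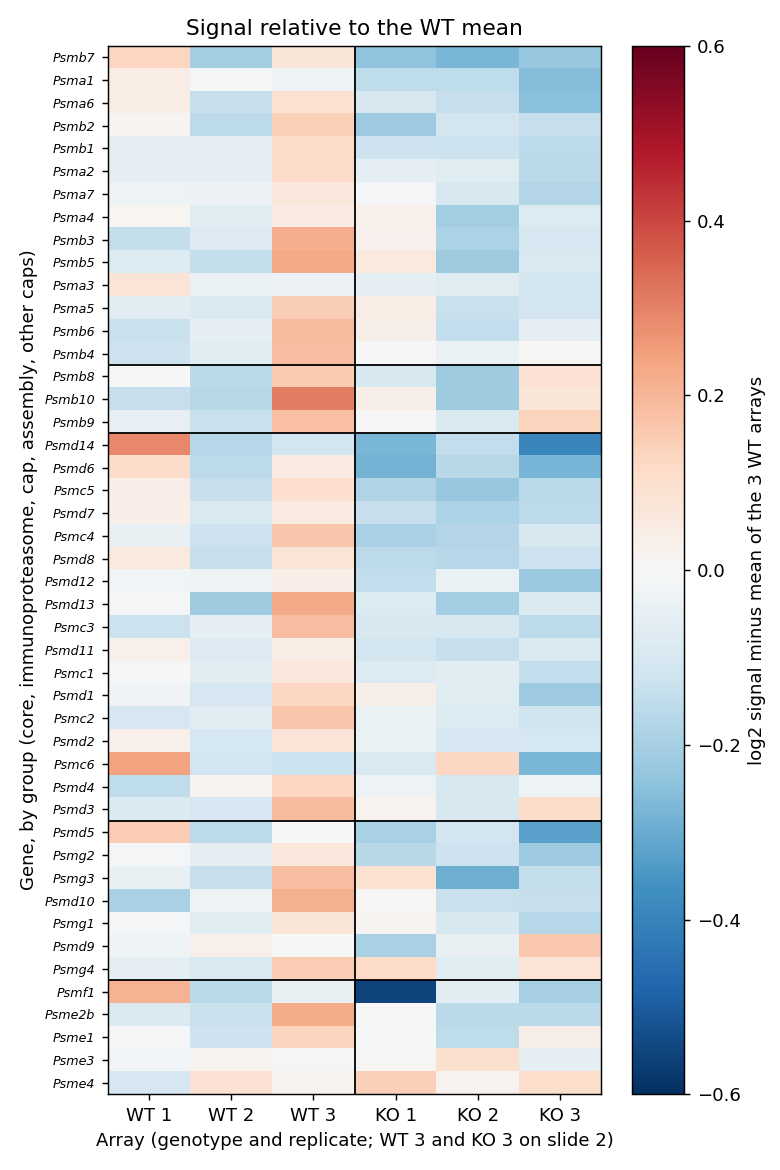
Log2 signal of each of the 46 genes (rows, grouped by role and ordered by difference) on each array (columns), minus the mean of the 3 WT arrays; red is above it and blue below. WT array 3 is the highest array for 35 genes, and KO array 3 is the lowest for 18.

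The core genes had small differences in one direction. All 14 had a lower mean in KO, but 9 of 14 did within slide 1 and 9 of 14 without WT array 3. With median scaling or no scaling between arrays all 14 were lower as well, where 73.0% and 75.8% of all features were. Their median difference was -0.090. The median was -0.094 for the 7 alpha subunits (Psma1 to Psma7), which form the outer rings and the gate. It was -0.11 for the 4 beta subunits without a cutting site (Psmb1 to Psmb4) and -0.082 for the 3 constitutive catalytic subunits. No core gene passed the test. All KO arrays lay below all WT arrays for 4 of 14, against 9.66% of all features and 574 of the 4163 of like brightness.

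Levels are given as log2 of the signal relative to the 75th percentile of the same array, so a value of 0 equals that percentile. Psma1, an alpha ring subunit, measured 4.83, 4.77 and 4.75 on WT arrays 1 to 3 and 4.63, 4.63 and 4.52 on KO arrays 1 to 3. All KO arrays lay below all WT arrays, with the lowest value on KO array 3, and the difference was -0.19 ± 0.08 SE (limma adjusted p = 0.415). The other alpha subunits lay between -0.16 (Psma6) and -0.067 (Psma5). Among the beta subunits without a cutting site, Psmb2 stood at -0.16, Psmb1 at -0.14 and Psmb4 at -0.011.

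Psmb7, which carries the trypsin-like site, measured 2.58, 2.24 and 2.52 on WT arrays 1 to 3 and 2.20, 2.17 and 2.22 on KO arrays 1 to 3. The KO arrays sat within a narrow band just below WT array 2, while WT arrays 1 and 3 stood clearly higher. The difference was -0.25 ± 0.11 SE (limma adjusted p = 0.424), with a 95% interval of -0.51 to 0.012. Psmb5, which carries the chymotrypsin-like site and is the target of the drug bortezomib, measured 5.89, 5.83 and 6.20 on WT arrays 1 to 3 and 6.03, 5.76 and 5.88 on KO arrays 1 to 3. WT array 3 was the highest and KO array 2 the lowest, and the genotypes overlapped (-0.082 ± 0.13 SE, limma adjusted p = 0.794). Psmb6, which carries the caspase-like site, measured 5.72, 5.79 and 6.04 on WT arrays 1 to 3 and 5.89, 5.70 and 5.80 on KO arrays 1 to 3. It too overlapped, with WT array 3 again the highest (-0.056 ± 0.11 SE, limma adjusted p = 0.843). Without WT array 3 the differences of Psmb5 and Psmb6 were positive, at 0.032 and 0.040, and within slide 1 they were 0.036 and 0.038.

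Tissue-specific core genes gave little signal. Psma8, the alpha subunit of the testis, was well above background on 2 of 6 arrays, and Psmb11, the catalytic subunit of the thymus cortex, on 0 of 6. Neither was tested.

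The immunoproteasome genes gave either sign, with 2 of 3 lower in KO and Psmb9 higher, which was itself negative with median scaling (-0.11) or no scaling (-0.13). Their median difference was -0.035, and it turned to 0.10 without WT array 3, to 0.054 without KO array 2 and to 0.046 within slide 1. Psmb8 measured 4.63, 4.47 and 4.79 on WT arrays 1 to 3 and 4.53, 4.42 and 4.72 on KO arrays 1 to 3. Psmb9 measured 4.64, 4.55 and 4.87 on WT arrays 1 to 3 and 4.69, 4.60 and 4.82 on KO arrays 1 to 3. Psmb10 measured 5.86, 5.83 and 6.30 on WT arrays 1 to 3 and 6.03, 5.79 and 6.07 on KO arrays 1 to 3. In each of the 3 genes, array 3 was the highest and array 2 the lowest within its genotype, and the genotypes overlapped. The differences were -0.073 ± 0.12 SE for Psmb8 (limma adjusted p = 0.804), 0.014 ± 0.11 SE for Psmb9 (limma adjusted p = 0.964) and -0.035 ± 0.15 SE for Psmb10 (limma adjusted p = 0.934). The 95% intervals were -0.36 to 0.22, -0.26 to 0.29 and -0.40 to 0.33 in that order. The difference between this group and the core was not tested.

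**Figure D3:**
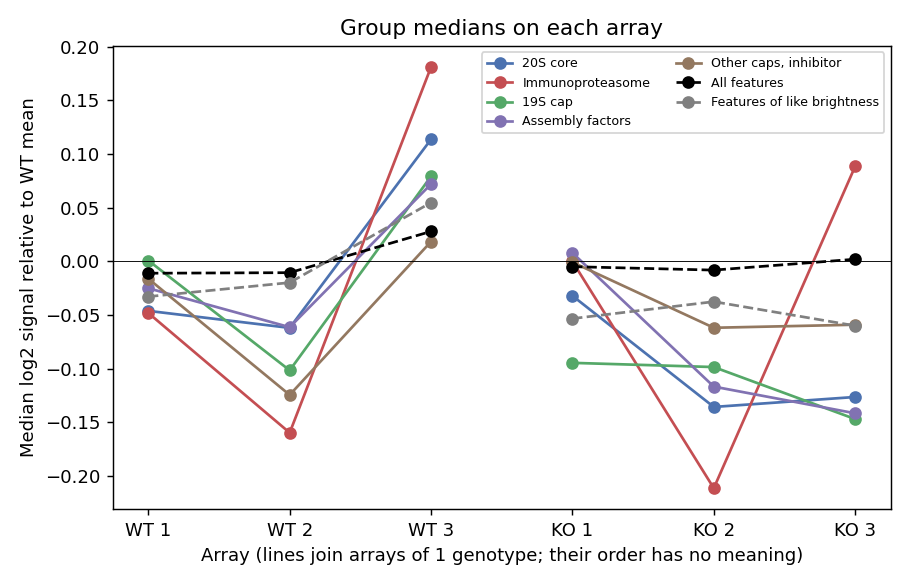
Median log2 signal of each proteasome group on each array, relative to the mean of the 3 WT arrays, with all 19602 features and those of like brightness as dashed lines; lines join arrays of 1 genotype and carry no order. The immunoproteasome genes stand at 0.18 on WT array 3 and 0.088 on KO array 3, and the core at 0.11 and -0.13.

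On KO array 3 the immunoproteasome and the core parted. The median there was 0.088 for the immunoproteasome genes and -0.13 for the core, relative to the WT mean, while both were at their highest on WT array 3. Each immunoproteasome subunit was set against the constitutive subunit whose place it takes, as a log2 ratio relative to its WT mean. Psmb8 against Psmb5 gave 0.085, -0.016 and -0.068 on WT arrays 1 to 3 and -0.15, 0.00091 and 0.18 on KO arrays 1 to 3. Psmb9 against Psmb6 gave 0.084, -0.074 and -0.01 on WT arrays 1 to 3 and -0.034, 0.06 and 0.18 on KO arrays 1 to 3. Psmb10 against Psmb7 gave -0.27, 0.041 and 0.23 on WT arrays 1 to 3 and 0.27, 0.062 and 0.30 on KO arrays 1 to 3. KO array 3 had the highest ratio in each pair, and the genotypes overlapped in each. The KO minus WT differences were 0.0086, 0.07 and 0.21, against SDs among the WT arrays of 0.078, 0.079 and 0.25. Between the arrays of slide 2 the 3 ratios differed by 0.25, 0.19 and 0.070 in that order, and within slide 1 by -0.11, 0.0079 and 0.28.

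**Figure D4:**
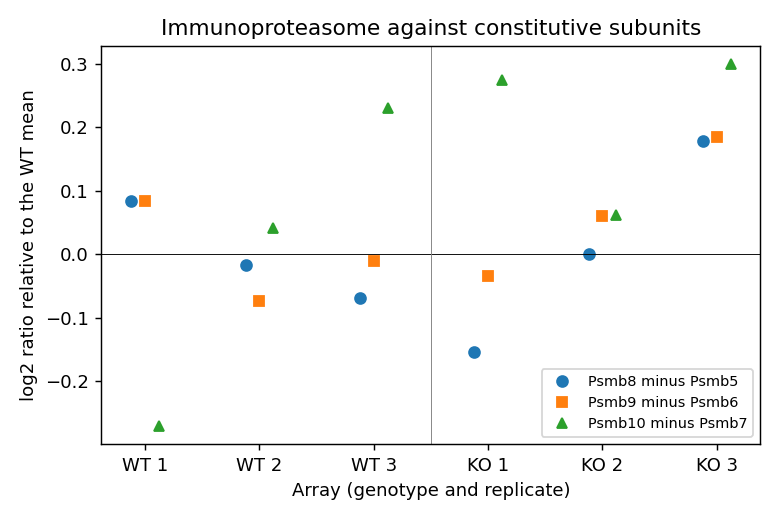
Log2 ratio of each immunoproteasome subunit to the constitutive subunit it replaces, relative to the mean of the 3 WT arrays, on each of the 6 arrays. The ratio is highest on KO array 3 in each pair, at 0.18, 0.18 and 0.30, and the genotypes overlap.

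The cap genes had a median difference of -0.12, with 16 of 17 lower in KO under the scaling used. Within slide 1, 13 of 17 were lower, and without WT array 3, 14 of 17. All 17 were lower with median scaling or no scaling between arrays, which moved all features too. All KO arrays lay below all WT arrays for 6 of 17, against 9.66% of all features and 574 of the 4163 of like brightness. The 6 ATPases Psmc1 to Psmc6, which unfold the substrate, had a median of -0.11. The 11 subunits without ATPase activity had a median of -0.12 and ranged from -0.27 (Psmd14) to 0.012 (Psmd3).

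Psmd6, a subunit of the lid that sits over the cap's base, measured 2.81, 2.54 and 2.75 on WT arrays 1 to 3 and 2.41, 2.53 and 2.42 on KO arrays 1 to 3. All KO arrays lay below all WT arrays, but WT array 2 and KO array 2 nearly touched. The difference was -0.24 ± 0.10 SE (exact two-sided permutation p = 0.1, limma unadjusted p = 0.046, adjusted p = 0.406), the smallest limma p among the members. Of the 46 genes it was the one whose 95% interval, -0.48 to -0.0051, did not include 0. Psmd14, the metalloprotease that cuts ubiquitin off the substrate, measured 1.55, 1.09 and 1.15 on WT arrays 1 to 3 and 0.99, 1.11 and 0.87 on KO arrays 1 to 3. Its genotypes overlapped, with WT array 1 far above the other 5 arrays and KO array 3 the lowest (-0.27 ± 0.14 SE, limma adjusted p = 0.47). Psmd7, the partner of Psmd14 in the lid, measured 3.097, 2.96 and 3.11 on WT arrays 1 to 3 and 2.92, 2.87 and 2.90 on KO arrays 1 to 3. Its genotypes did not overlap (-0.16 ± 0.082 SE, limma adjusted p = 0.459).

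Psmc5, one of the ATPases, measured 3.15, 2.97 and 3.22 on WT arrays 1 to 3 and 2.94, 2.89 and 2.95 on KO arrays 1 to 3. Its KO arrays all lay below WT array 2, the lowest of the WT arrays (-0.19 ± 0.093 SE, limma adjusted p = 0.451). Psmd3, a lid subunit, was the cap gene with a higher mean in KO (0.012 ± 0.11 SE, limma adjusted p = 0.971), and it was lower with median scaling (-0.11) or no scaling (-0.13). Psmd4, a ubiquitin receptor, stood at -0.052, and the large scaffold subunits Psmd1 and Psmd2 at -0.084 and -0.08. Psmd12, a lid subunit, had a pair of probes that disagreed in sign, the brighter at -0.14 and the other at 0.0065.

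The assembly factors gave 6 of 7 lower means in KO and a median of -0.088. Psmg1 and Psmg2 form a pair that guides the alpha ring. Psmg2 measured 2.83, 2.78 and 2.90 on WT arrays 1 to 3 and 2.67, 2.71 and 2.62 on KO arrays 1 to 3. Its genotypes did not overlap (-0.17 ± 0.08 SE, limma adjusted p = 0.443). Psmg1 stood at -0.084 ± 0.089 SE, and of the second pair, Psmg3 stood at -0.11 ± 0.13 SE and Psmg4 at 0.041 ± 0.10 SE, which was negative with median scaling (-0.082) or no scaling (-0.10). Of the chaperones of the cap's base, Psmd5 measured 2.01, 1.70 and 1.86 on WT arrays 1 to 3 and 1.66, 1.74 and 1.53 on KO arrays 1 to 3. WT array 2 and KO array 2 crossed over, so that the genotypes overlapped (-0.21 ± 0.11 SE, limma adjusted p = 0.468). Psmd10, also known as gankyrin, stood at -0.088 ± 0.12 SE and Psmd9 at -0.026 ± 0.11 SE.

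Among the other caps, which replace the ATPase cap on the barrel, 3 of 5 genes were lower and 2 higher, with a median of -0.041. Psme1 encodes a subunit of the interferon-induced cap and measured 5.69, 5.58 and 5.84 on WT arrays 1 to 3 and 5.69, 5.55 and 5.74 on KO arrays 1 to 3. Array 3 was the highest of each genotype, as in the immunoproteasome genes, and the genotypes overlapped (-0.041 ± 0.10 SE, limma adjusted p = 0.878). Psme3, which forms the cap of the nucleus, stood at 0.014 ± 0.081 SE and Psme4, an activator that binds the barrel as a single chain, at 0.089 ± 0.089 SE (limma adjusted p = 0.679). Both were negative with median scaling (-0.11 and -0.034) or no scaling (-0.13 and -0.057). Psmf1, an inhibitor of the core, measured 0.17, -0.20 and -0.087 on WT arrays 1 to 3 and -0.60, -0.10 and -0.24 on KO arrays 1 to 3. KO array 1 lay far below the other 5 arrays and the genotypes overlapped (-0.27 ± 0.16 SE, limma adjusted p = 0.501).

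Psme2, the partner of Psme1, is not a name on the array, and its near-identical copy Psme2b has 3 probes. Of these, 2 are also annotated to Psme2, so their signal cannot be assigned to either gene. The brighter of them measured 5.77, 5.72 and 6.08 on WT arrays 1 to 3 and 5.85, 5.69 and 5.69 on KO arrays 1 to 3, with genotypes that overlapped (-0.11 ± 0.12 SE, limma adjusted p = 0.708). The other shared probe, whose sequence is given above, stood at -0.18. The probe annotated to Psme2b alone measured -0.45, -0.92 and -0.67 on WT arrays 1 to 3 and -0.35, -0.39 and -0.36 on KO arrays 1 to 3. Every KO array lay above every WT array, while the shared probes had lower means in KO. The difference was 0.31 ± 0.13 SE (exact two-sided permutation p = 0.1, limma unadjusted p = 0.048, adjusted p = 0.433 over 27796 probes). Of all probes, 6.80% were higher in KO at an unadjusted limma p under 0.05.

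Other probes of the same gene mostly gave the same sign. Of the 13 genes with more than 1 tested probe, Psmd12 and Psme2b were those whose probes differed in sign. Over all 60 tested probes of proteasome genes, 51 were lower and 9 higher in KO, and 0 passed the adjusted p of limma.

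The spread between arrays sets how small a difference could be seen. Among the 46 genes the median SD was 0.13 over the WT arrays and 0.081 over the KO arrays, while for all features it was 0.13 in both. The WT arrays thus spread more than the KO arrays for these genes. The standard error of a difference had a median of 0.10. The 95% intervals reached from -0.65 (Psmf1) to 0.33 (Psmb10), and for 45 of the 46 genes they included 0.

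Position on the chromosome was examined because Spred1 lies on chromosome 2. Of the proteasome genes, 6 do as well, with probes from 26.1 Mb (Psmc3) to 82.3 Mb (Psmd5) away from those of Spred1 (mm9). Their differences were -0.27 for Psmf1, -0.27 for Psmd14, -0.25 for Psmb7, -0.21 for Psmd5, -0.12 for Psmc3 and -0.094 for Psma7. Of the 5 proteasome genes of most negative difference, 4 are on this chromosome, with Psmd6 the exception. The median was -0.23 for the 6 genes, -0.085 for the 40 on other chromosomes, and -0.0040 for all 1490 features on chromosome 2. This grouping was made after the values were seen.

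Factors that work with the proteasome but carry other names had differences of either sign. Of 35 listed, 32 were tested: 24 had a lower mean in KO and 8 a higher one, with a median of -0.050 and 0 passing limma's adjusted p. Of all features 51.1% were lower, and of those of like brightness to the proteasome genes 66.5%. Uba1, the main ubiquitin-activating enzyme, measured 5.66, 5.55 and 5.74 on WT arrays 1 to 3 and 5.42, 5.43 and 5.48 on KO arrays 1 to 3. Its genotypes did not overlap (-0.21 ± 0.085 SE, limma adjusted p = 0.404), and it was the one partner at an unadjusted p under 0.05. Of all features, 5% were lower at that threshold. All KO arrays lay below all WT arrays for 3 of 32 partners, Uba1, Ubqln1 and Akirin2, against 9.66% of all features. Next by p on the lower side were Uchl5 (-0.22 ± 0.10 SE), a deubiquitinase of the cap, and Ubqln1 (-0.23 ± 0.11 SE), a shuttle for ubiquitinated proteins. On the higher side were AI314180 (0.23 ± 0.19 SE), the adaptor also called Ecm29, and Txnl1 (0.20 ± 0.18 SE), a thioredoxin bound to the cap.

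The cap subunits with other names stood near 0, Adrm1 at -0.033 and Shfm1 at -0.03. Pomp, the maturation factor of the barrel, measured 4.36, 4.33 and 4.58 on WT arrays 1 to 3 and 4.43, 4.30 and 4.30 on KO arrays 1 to 3. WT array 3 was the highest and the genotypes overlapped (-0.077 ± 0.10 SE, limma adjusted p = 0.751). Nfe2l1, the transcription factor that raises proteasome genes when the proteasome is blocked, stood at -0.094 ± 0.21 SE (limma adjusted p = 0.863).

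Class I presentation, which uses the peptides that the immunoproteasome makes, gave 9 lower and 6 higher of 15 tested genes, a median of -0.022, and 0 passing limma's adjusted p. Ifngr1, a chain of the interferon-gamma receptor, measured 3.93, 4.15 and 4.12 on WT arrays 1 to 3 and 4.30, 4.36 and 4.57 on KO arrays 1 to 3. Every KO array lay above every WT array (0.35 ± 0.11 SE, exact two-sided permutation p = 0.1, limma unadjusted p = 0.017, adjusted p = 0.375). The interferon factor Irf1 stood at 0.18 ± 0.097 SE, and its genotypes overlapped. On the lower side the chaperones Calr and Canx stood at -0.25 ± 0.14 SE and -0.14 ± 0.093 SE. The peptide transporter genes Tap1 and Tap2, neighbours of Psmb9 and Psmb8, stood at -0.10 ± 0.12 SE and -0.022 ± 0.098 SE, and B2m, the light chain of class I, at 0.12 ± 0.12 SE.

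Upstream sequence was examined for motifs because most members leaned the same way. RefSeq windows of GRCm38.p6, 250 bases upstream of the gene start, were matched for 40 of the 48 genes. The first sequence is the 225 bases between the starts of Psmb9 and Tap1, which run in opposite directions, at chr17:34187331-34187555. The others are the windows of Psmb5 (chr14:54617996-54618245) and Psmd6 (chr14:14120946-14121195). All 3 are on the minus strand, and capitals mark matches to the motifs below.
Psmb9 to Tap1: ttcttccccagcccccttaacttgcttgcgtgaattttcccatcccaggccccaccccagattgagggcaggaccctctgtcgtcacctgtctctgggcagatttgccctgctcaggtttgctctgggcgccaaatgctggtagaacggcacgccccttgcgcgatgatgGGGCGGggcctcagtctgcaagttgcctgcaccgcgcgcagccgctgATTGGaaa
Psmb5: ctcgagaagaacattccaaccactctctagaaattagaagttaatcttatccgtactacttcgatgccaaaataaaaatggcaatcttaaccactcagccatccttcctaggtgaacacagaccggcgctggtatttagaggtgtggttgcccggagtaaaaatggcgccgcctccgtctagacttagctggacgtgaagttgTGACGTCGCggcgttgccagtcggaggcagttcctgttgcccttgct
Psmd6: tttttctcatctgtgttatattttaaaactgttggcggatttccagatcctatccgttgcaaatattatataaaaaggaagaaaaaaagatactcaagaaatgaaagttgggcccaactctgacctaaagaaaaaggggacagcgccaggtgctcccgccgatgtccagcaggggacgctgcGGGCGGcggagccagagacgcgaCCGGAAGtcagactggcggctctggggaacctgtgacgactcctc

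The core of the antioxidant response element bound by Nfe2l1 and Nfe2l2 (TGACNNNGC) was found on either strand in 5 of 40 windows (12.5%), those of Psmb5, Psmb6, Psmc6, Psmd12 and Psmd9, against 11.5% of 27025 genes. The CCAAT box (CCAAT) was in 14 (35%) against 37.5%, and the GC box (GGGCGG) in 21 (52.5%) against 35.4%. The core of the site of ETS factors, which ERK signalling acts on (CCGGAAG), was in 12 (30%) against 7.83%. None of these motifs contains another on either strand. Among tested genes, the 12 with the ETS letters had a median difference of -0.082 and the 27 without them -0.087. For the antioxidant letters the medians were -0.080 and -0.087. A match is a description of letters, not a bound site.

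The arrays were alike in quality measures but not in all marker genes. Correlations between arrays lay between 0.988 and 0.995, and 52.3% to 53.4% of spots were well above background, with 0 saturated. Kit (5.04 to 5.46) and Ly6a (4.36 to 4.90), the genes of c-Kit and Sca-1, were well above background on all arrays. Cd8a was so on 0 of 6, while Cd48 was on all 6. All 12 listed neutrophil genes were measured, and their median relative to the WT mean was -1.63 on WT array 1, 0.89 and 0.77 on WT arrays 2 and 3, and 0.14 to 0.47 on the KO arrays. WT array 1 also had the lowest median for the erythroid (-0.60), B cell (-0.55) and monocyte and macrophage (-0.54) lists. The stem cell list had its highest median there (0.093). For the proteasome genes WT array 1 lay between the other WT arrays, and the part of these cells in the values was not tested.

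Marker lists also differed in their medians between the genotypes, and 0 of their genes passed limma's adjusted p. Monocyte and macrophage genes, 10 of 12 tested, had a median KO minus WT of 0.36, with 8 higher in KO. Relative to the WT mean, their array medians overlapped between the genotypes. They were -0.54, 0.19 and 0.42 on WT arrays 1 to 3 and -0.016, 0.68 and 0.30 on KO arrays 1 to 3. The neutrophil genes had a median difference of 0.37, with 10 of 12 higher. WT array 1 had the lowest array median in both lists. Dendritic cell genes, 5 of 8 tested, had a median difference of 0.29, with 4 higher. Of these, 2 had an unadjusted limma p under 0.05, where 7.19% of all features were called higher. Ly6d of that list and Ccr2 of the monocyte and macrophage list were well above background on 3 KO arrays but on 2 WT arrays. Both thus entered through KO alone, and their higher values are no separate evidence. All 6 tested genes of the 8 that the gate selects against were higher, with a median of 0.090, while the 13 stem cell genes had a median of -0.089, with 8 lower. The part of these differences in the proteasome values was not tested.

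The size of the lean moved with the scaling between arrays. With no scaling between arrays the median of all features was itself -0.15, and that of the proteasome genes -0.24. With median scaling they were -0.13 and -0.21. The gap between members and all features was -0.085 in both. It had to equal the gap with the 75th percentile as the base, because these choices differ only by a constant per array. Quantile normalization can change the gap, and it gave a median of -0.0064 for all features and -0.079 for the proteasome genes. With no scaling and with median scaling, 24 and 8 of the 46 genes were lower at an unadjusted limma p under 0.05. The shares of all features were 18.6% and 13.7%, and 0 of the 46 passed the adjusted p.

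**Figure D5:**
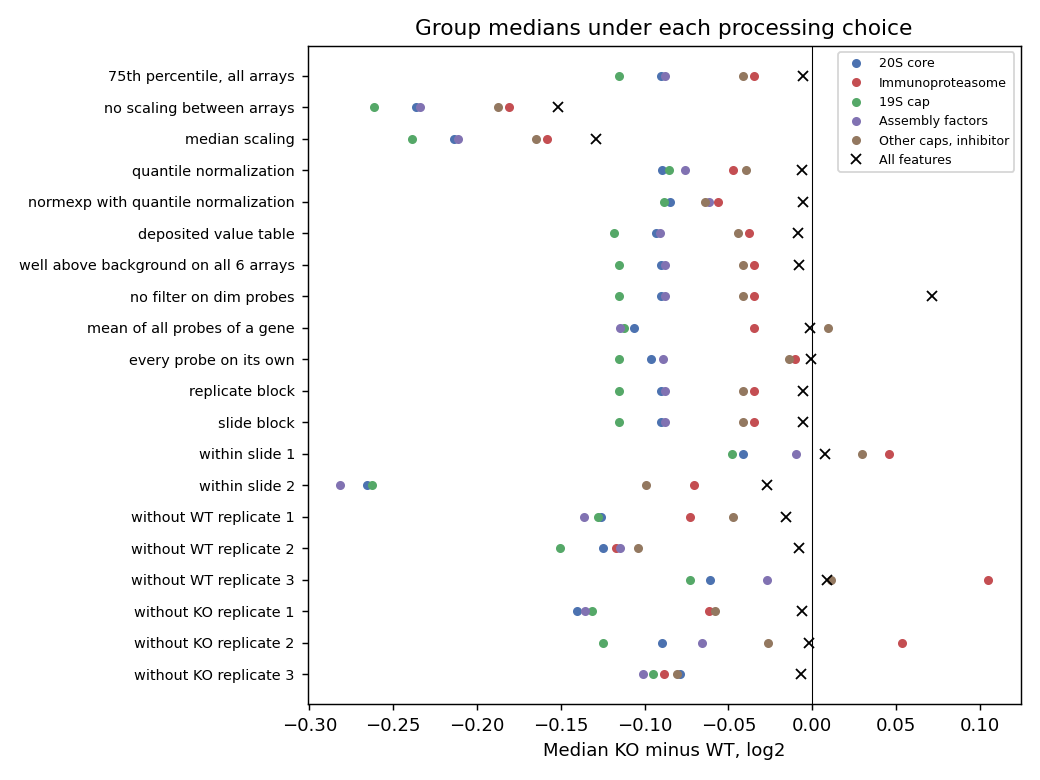
Median KO minus WT (log2) of each proteasome group and of all features (crosses) under each processing choice, with single arrays left out in the lowest 6 lines. Medians of the core and the cap stay below 0 under each choice, while those of the immunoproteasome genes and the other caps lie on either side of 0.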

How the data were processed

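Each of the 6 RNA samples was hybridised to 1 Agilent array. The values used were linear intensities, the processed signal that Agilent Feature Extraction 10.7.3.1 had corrected for background, per the file headers. A second table of the authors' deposited intensity values equalled that signal divided by 1 constant per array and served as an alternative. Control and outlier spots were left out, spots of a probe were averaged, and log2 values were taken relative to the 75th percentile of each array. Where a gene name had several probes, the one with the highest mean over the 6 arrays stood for it. KO minus WT was fitted in R 4.3.3 by limma 3.58.1 without covariates, on features flagged well above background on each array of 1 genotype or both. Benjamini-Hochberg adjustment ran over 19602 features, and the threshold was 0.05. On simulated arrays with 50 genes changed at each fold, the fit recovered 26 at 1.5-fold and 37 at 2-fold, with 9 false calls among 19597 genes; the many changed genes there loosen the adjusted threshold, so these shares do not carry over to the measured arrays.

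The proteasome genes, the lists of partners and class I genes, and the tests were chosen with earlier results of these data known, so no list was tested as a whole. Genes named with array values are the catalytic subunits, the 8 of smallest p in each direction, the assembly factors and other caps, members whose probes disagree, and 3 of smallest p per direction in each list, of which some are not reported here. Gene names are those of the array. All 49 were found in RefSeq by accession, under the same symbol. Same-numbered arrays of the genotypes had correlated deviations of -0.027, 0.15 and 0.071, so the numbers were not taken to pair samples. The number of arrays limits the precision.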

Additional observations from a re-analysis of the deposited data

How the results depend on the processing

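In every fit that was run, 0 of the proteasome genes passed the adjusted p. The count of those lower in KO at an unadjusted limma p under 0.05 was 1 in the setting reported. It was 24 with no scaling between arrays (18.6% of all features), 8 with median scaling (13.7%) and 2 with the deposited value table (5.30%). It was 0 with quantile normalization, no filter on dim probes, every probe on its own, the slide as a block, or slide 1 alone. With a replicate block it was 0 too. With every probe on its own, 1 probe was higher, where 6.80% of all probes were. Leaving out 1 array gave 0 to 4, the highest without WT replicate 2, where 5.93% of all features were called.

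With no scaling the medians were -0.2369 for all proteasome genes, -0.2362 for the core, -0.2612 for the cap, -0.2338 for the assembly factors and -0.1874 for the other caps. With median scaling they were -0.2145, -0.2138, -0.2387, -0.2114 and -0.1649 in that order. Both scalings shifted all features too. Within slide 1 the assembly factors had -0.009442 and the other caps 0.02969. Slide 2 alone gave -0.2439 for all, -0.2657 for the core, -0.2627 for the cap and -0.2817 for the assembly factors, and its Psmb8 to Psmb5 and Psmb9 to Psmb6 ratios differed by 0.2473 and 0.1947. With 1 array left out, the other caps ran from -0.1037 to 0.01145 (without WT replicate 2 and WT replicate 3). Why these values moved was not tested.

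With 3 arrays per genotype and a median SE of 0.10, differences as small as those of most of these genes were not detectable. The labels do not tie samples to animals, and slide 2 held 1 array per genotype.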
